A study of Mus musculus with 70 samples.

Results

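Etv1, Etv4 and Etv5 are the 3 genes of the PEA3 group of transcription factors, and they were taken by symbol from the 50789 Ensembl gene identifiers of a table of read counts. The table covers 70 samples of mouse lung, cortex and cerebellum from wild-type mice (WT) and from mice labelled Cic-S-KO or Cic-L-KO, named for the short and the long isoform of the repressor Capicua, which the gene Cic encodes. Lung was taken at postnatal day 6 and carries the label of batch 1, and cortex and cerebellum were taken at 12 weeks of age and carry the label of batch 2, so that lung differs from brain in age and batch as well as in tissue. Each of the 9 groups holds 8 samples, except Cic-S-KO cortex and Cic-S-KO cerebellum with 7 each. WT samples are littermate controls pooled from both lines, so neither knockout can be set against littermates of its own line alone. The labels do not say whether the samples of a group come from separate animals, and p-values then measure only the spread between these samples, which may be technical. RNA came from whole tissue, where fewer cells of a type and less RNA per cell cannot be told apart.

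PEA3 factors bind DNA through an ETS domain and activate genes downstream of receptor tyrosine kinases and the kinase ERK. Capicua is an HMG-box repressor that holds PEA3 genes low until ERK signalling releases it from DNA, and Etv1, Etv4 and Etv5 are among its best known targets. Etv4 and Etv5 act in the distal epithelium of the growing lung and Etv5 in alveolar type 2 cells, whereas Etv1 marks layer 5 projection neurons of the cortex and is prominent in granule neurons of the cerebellum.

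On GRCm38, Etv1 (ENSMUSG00000004151.17) lies on the plus strand of chromosome 12 from 38779380 to 38870484, Etv4 (ENSMUSG00000017724.14) on the minus strand of chromosome 11 from 101769742 to 101785371, and Etv5 (ENSMUSG00000013089.15) on the minus strand of chromosome 16 from 22381309 to 22439719. All 3 are protein coding. Their exons overlap 0 other annotated genes and share 0 stretches of 31 bases with each other. The union of exons is 13296 bases for Etv1, 3104 for Etv4 and 4103 for Etv5.

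The upstream sequences are shown because Capicua is known to bind the octamer TGAATGAA and its variant TGAATGGA, both of which hold TGAATG. A RefSeq table of promoter windows (GRCm38.p6, 250 bases before to 50 after a transcript start) holds 2 windows for Etv1 and 2 for Etv5. The 250 bases before a start of each gene that overlap 0 annotated exon bases are printed 5′ to 3′ on the gene's strand, for Etv1 chr12:38779832-38780081 on the plus strand and for Etv5 chr16:22438369-22438618 on the minus strand. Capitals mark TGAATG or its reverse complement CATTCA.
Etv1: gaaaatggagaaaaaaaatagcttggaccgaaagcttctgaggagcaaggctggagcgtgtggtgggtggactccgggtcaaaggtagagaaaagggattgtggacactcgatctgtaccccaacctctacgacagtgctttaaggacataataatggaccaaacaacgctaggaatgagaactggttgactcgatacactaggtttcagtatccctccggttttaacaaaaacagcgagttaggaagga
Etv5: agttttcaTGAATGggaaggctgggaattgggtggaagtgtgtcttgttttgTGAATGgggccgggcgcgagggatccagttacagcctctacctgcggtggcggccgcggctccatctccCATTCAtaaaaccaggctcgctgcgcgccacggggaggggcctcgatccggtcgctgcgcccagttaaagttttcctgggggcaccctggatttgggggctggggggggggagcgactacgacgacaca

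Both strands of the whole windows were searched. The RefSeq table held 0 windows for Etv4, so its upstream sequence was not searched. The printed Etv5 window held TGAATG 3 times, and each of the 3 was followed by GG on its own strand, which makes TGAATGGG. The other 3 windows held TGAATG 0 times, and TGAATGAA and TGAATGGA were in 0 of the 4. Of 32544 mouse windows of the same length, 12.6% held TGAATG at least 1 time and 0.172% held it at least 3 times. TGAATGAA was in 1.31%, TGAATGGA in 1.19% and TGAATGGG in 1.08% of them, and all 3 octamers contain TGAATG, so these shares overlap. A match describes these letters only and is not a bound site. The search covered only sequences that hold TGAATG, and TGAATGAA and TGAATGGA were not taken as a full list of what Capicua binds. Their absence therefore does not show that a window lacks a form that Capicua can bind.

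Total counts per sample ran from 17798655 to 35523037, both in lung. Levels are given as CPM, counts scaled to a common library total with TMM factors. Over the 70 libraries Etv4 was read by 170 to 1434 counts, Etv1 by 1611 to 18565 and Etv5 by 1569 to 6748, so Etv4 in WT cortex had the thinnest data. Replicates differed by more than sampling noise in every pair, with a chi-square of at least 4.17 per degree of freedom, so each sample counted once. The Cic gene itself did not check the genotype labels, since counts per gene do not separate its isoforms. In the edgeR quasi-likelihood test, with p adjusted over all genes of the tissue, total Cic rose 1.24-fold in Cic-S-KO lung (adjusted p = 6.41e-05), 1.55-fold in Cic-S-KO cortex (adjusted p = 1.35e-12), 1.84-fold in Cic-L-KO cortex (adjusted p = 9.49e-18) and 1.11-fold in Cic-L-KO cerebellum (adjusted p = 0.0253). Cic-L-KO lung had 0.973 of the WT level (edgeR adjusted p = 0.681) and Cic-S-KO cerebellum 1.11 (edgeR adjusted p = 0.05004, just short of the threshold of 0.05).

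Etv4 was the only one of the 3 factors that rose in lung, and in the brain all 5 differences from WT that passed were in Cic-L-KO mice. In Cic-S-KO lung 1 of the 3 members passed, Etv4 higher, where 15.7% of 16695 genes did (9.99% higher and 5.73% lower). In Cic-L-KO lung it was again Etv4 alone, higher, where 4.89% of genes passed (2.62% higher and 2.28% lower). In Cic-S-KO cortex 0 of 3 passed in edgeR (1 at an unadjusted p under 0.05, 0 in DESeq2), against 6.53% of 16974 genes (2.83% higher and 3.70% lower). In Cic-L-KO cortex all 3 passed, Etv4 and Etv5 higher and Etv1 lower, where 43.2% of genes did (21.4% higher and 21.9% lower), so that a change in itself was common there.

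In Cic-S-KO cerebellum 0 of 3 passed in edgeR, against 8.23% of 16643 genes (4.34% higher and 3.89% lower), while 2 of 3 had an unadjusted p under 0.05 and 2 of 3 passed in DESeq2. In Cic-L-KO cerebellum 2 of 3 passed, Etv4 higher and Etv1 lower, where 21.5% of genes did (10.9% higher and 10.6% lower). The 2 knockouts share their WT samples. Set directly against each other, Cic-S-KO differed from Cic-L-KO in 1 of 3 members in lung (12.2% of genes, 7.31% higher and 4.85% lower) and in 3 of 3 in cortex (33.9% of genes, 17.4% higher and 16.5% lower). In cerebellum they differed in 0 of 3 in edgeR (1 at an unadjusted p under 0.05, 0 in DESeq2), where 12.4% of genes passed (6.06% higher and 6.38% lower).

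**Figure D1:**
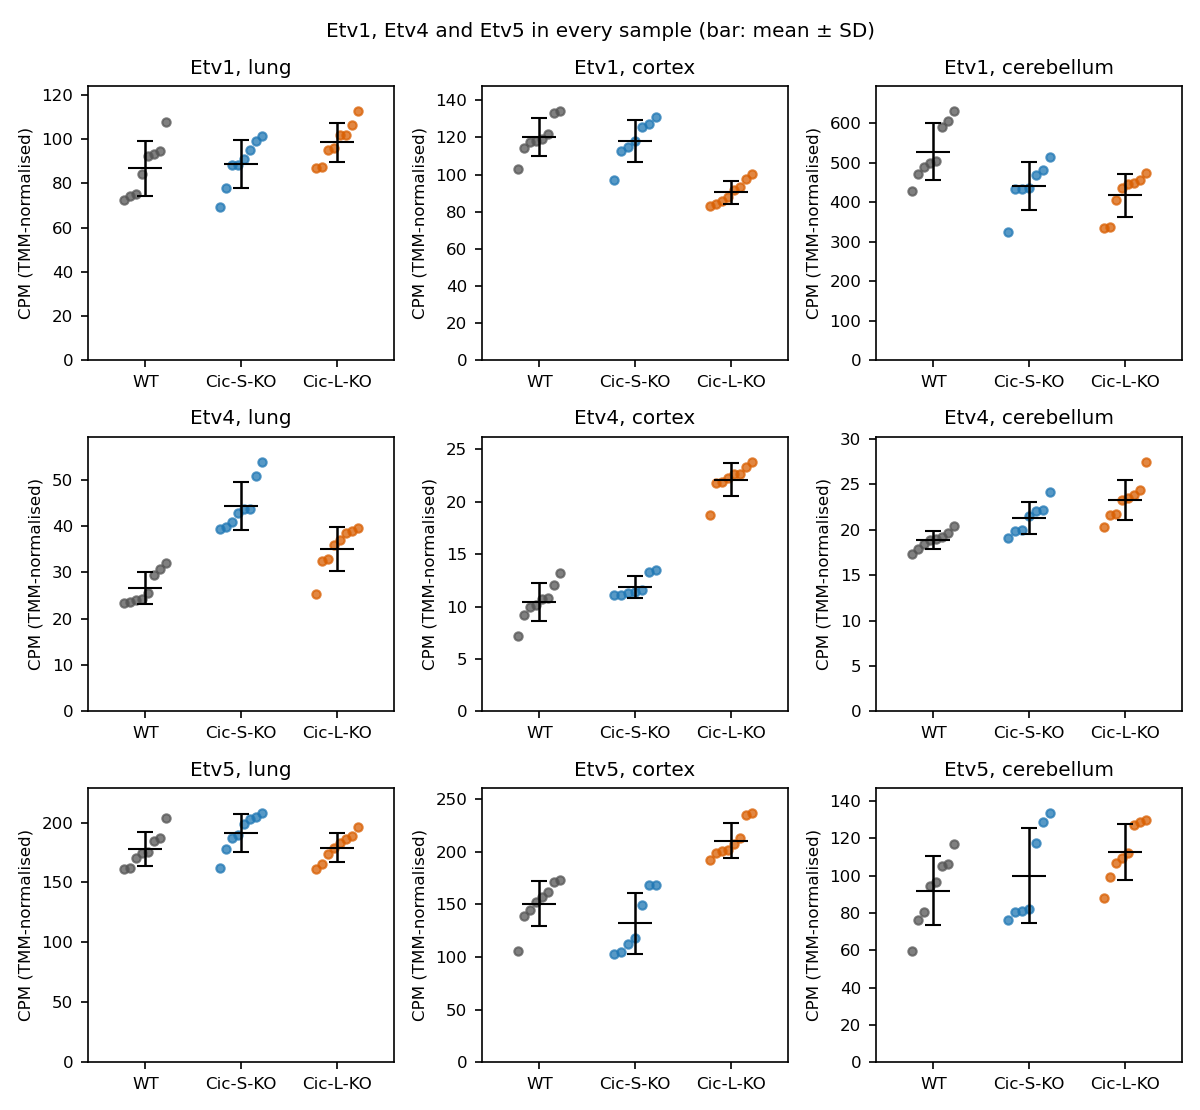
Counts scaled to library size (CPM) of each factor on the vertical axis, by genotype, in panels for gene and tissue. Each point is a sample and the bars give mean ± SD. Etv4 in Cic-S-KO lung and in Cic-L-KO cortex lies wholly above WT, and Etv1 in Cic-L-KO cortex lies wholly below it.

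In WT tissue the 3 factors had different places of highest level. Per exon length, as TPM (counts divided by exon length and scaled to the same total in every library), Etv1 stood at 152 ± 21 (SD, n = 8) in cerebellum, 33.6 ± 2.7 in cortex and 22.1 ± 3.2 in lung. Etv5 had the reverse order, with 147 ± 14 TPM in lung and 136 ± 19 in cortex, which overlapped, and 85.8 ± 16.8 in cerebellum. Etv4 was at 29.1 ± 3.9 TPM in lung, 23.3 ± 1.4 in cerebellum and 12.4 ± 2.2 in cortex.

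Between the 2 brain regions of WT mice, which share age and batch label, all 3 members differed, as did 73.5% of 18032 genes. Etv1 was lower in cortex than in cerebellum by a log2 difference of -2.05 ± 0.08 (SE, edgeR adjusted p = 1.51e-25). Etv4 was also lower in cortex, by -0.77 ± 0.07 (edgeR adjusted p = 1.63e-13), whereas Etv5 was higher there by 0.79 ± 0.13 (edgeR adjusted p = 1.00e-06). Lung was not tested against brain, since age and batch differ with it.

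The order of the 9 groups followed tissue for Etv1 and less so for Etv4. For Etv1 the 3 cerebellum groups came first (119 to 152 TPM) and did not overlap any cortex group. Cortex Cic-S-KO (34.1 TPM) and cortex WT came next and overlapped each other, and cortex Cic-L-KO (25.7 TPM) lay apart from cortex WT and overlapped the next group, lung Cic-L-KO (24.4 TPM). For Etv4 lung Cic-S-KO was highest (46.4 TPM), followed by lung Cic-L-KO (37.3 TPM). Each Etv4 group from there down to cerebellum WT overlapped its neighbour, and cortex Cic-L-KO (26.9 TPM) ranked among them, while cortex Cic-S-KO (14.7 TPM) and cortex WT lay apart below. For Etv5 cortex Cic-L-KO was highest (194 TPM) and lay apart from the next group, lung Cic-S-KO (152 TPM), and all later neighbours overlapped.

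Etv4 is the member that acts with Etv5 at the tips of lung branches. In WT lung it had 23.4 to 32.0 CPM (median 25.0), in Cic-S-KO lung 39.4 to 53.8 CPM (median 43.3) and in Cic-L-KO lung 25.4 to 39.5 CPM (median 36.4). All 8 Cic-S-KO samples lay above the highest WT sample, and 7 of 8 Cic-L-KO samples did. Etv4 rose 1.67-fold in Cic-S-KO lung, a log2 fold change of 0.74 ± 0.09 (SE, edgeR adjusted p = 1.26e-05), and Etv4 ranked 5 of 16695 genes by p in that comparison. In Cic-L-KO lung it rose 1.32-fold, a log2 fold change of 0.40 ± 0.09 (edgeR adjusted p = 0.00792). Set against Cic-L-KO lung, the Cic-S-KO level was higher by 0.34 ± 0.09 (edgeR adjusted p = 0.00988).

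Markers of other lung cells moved beside this. All 4 macrophage markers tested rose in Cic-S-KO lung, where their summed level was 1553 to 3573 CPM against 1429 to 2042 in WT, and in Cic-L-KO the sums were 1663 to 2551 CPM with no marker past the threshold. Of 5 alveolar type 1 markers 4 rose in Cic-L-KO lung, with sums of 2706 to 3019 CPM against 2204 to 2583 in WT. Of 6 alveolar type 2 markers 1 rose in Cic-S-KO (18096 to 23751 CPM in sum, WT 16729 to 20674) and 0 passed in Cic-L-KO (17139 to 20291). None of these markers was at 0 in all samples of a lung group, and their part in the rise of Etv4 was not tested.

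In the cortex Etv4 had 7.19 to 13.2 CPM in WT (median 10.4), 11.1 to 13.5 in Cic-S-KO (median 11.4) and 18.7 to 23.8 in Cic-L-KO (median 22.4). The Cic-L-KO samples were all above every WT and every Cic-S-KO sample, while Cic-S-KO and WT overlapped. Etv4 rose 2.13-fold in Cic-L-KO cortex, a log2 fold change of 1.09 ± 0.08 (SE, edgeR adjusted p = 5.79e-12, rank 117 of 16974 genes by p). In Cic-S-KO cortex the log2 fold change was 0.19, with a 95% interval of 0.02 to 0.37 before adjustment (edgeR adjusted p = 0.175). Cic-S-KO cortex was lower than Cic-L-KO cortex by -0.89 ± 0.08 (edgeR adjusted p = 7.36e-10).

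In the cerebellum Etv4 had 17.3 to 20.4 CPM in WT (median 18.9), 19.1 to 24.2 in Cic-S-KO (median 21.6) and 20.3 to 27.5 in Cic-L-KO (median 23.4). Of the Cic-L-KO samples 7 of 8 were above all WT samples, and of the Cic-S-KO samples 4 of 7. The rise in Cic-L-KO was 1.24-fold, a log2 fold change of 0.31 ± 0.06 (SE, edgeR adjusted p = 0.000409). In Cic-S-KO the log2 fold change of 0.18 ± 0.06 missed the threshold (edgeR adjusted p = 0.0657), but it passed without Cic-S-KO replicate 3 (0.20, edgeR adjusted p = 0.0353), without Cic-L-KO replicate 6 (0.18, edgeR adjusted p = 0.0465) and in DESeq2 (0.17, adjusted p = 0.0490). The 2 knockouts differed by -0.13, with a 95% interval of -0.25 to -0.01 before adjustment (edgeR adjusted p = 0.159).

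The Cic-L-KO effect on Etv4 was larger in cortex than in cerebellum. The difference of the 2 log2 fold changes was 0.78 ± 0.10 (SE, edgeR interaction test over 46 brain samples, adjusted p = 7.44e-08), in a test where 23.0% of 18032 genes passed and 1 of 3 members did. For the Cic-S-KO effect 0 of 3 members differed between regions in edgeR (0 at an unadjusted p under 0.05, 0 in DESeq2, 4.50% of genes passing), and for Etv4 that difference was 0.02 (95% interval -0.20 to 0.23, edgeR adjusted p = 0.956).

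**Figure D2:**
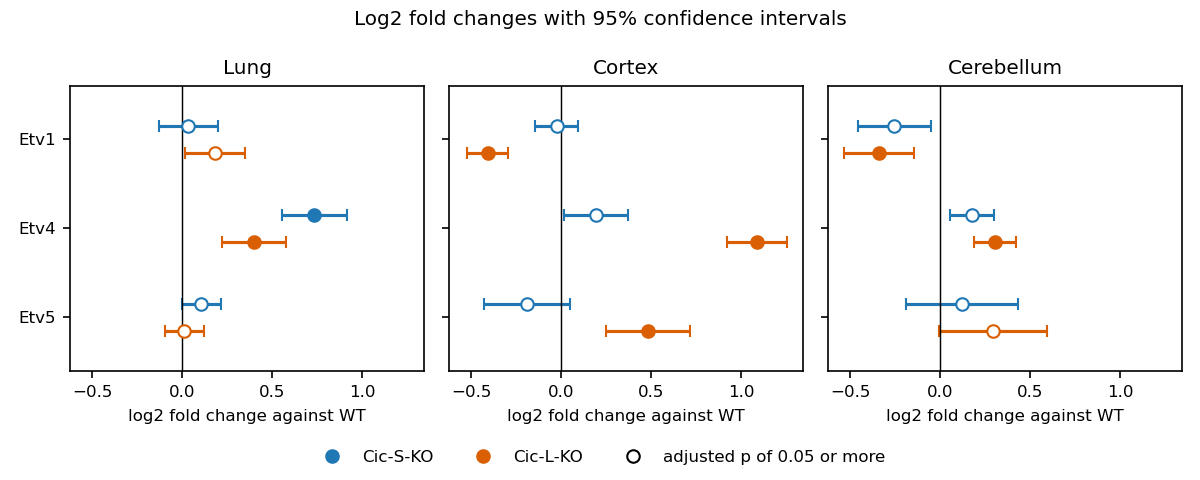
Log2 fold change against WT on the horizontal axis with its 95% confidence interval, for each factor (rows), tissue (panels) and knockout (colours). Filled points passed at an adjusted p under 0.05. Etv4 lies to the right of 0 in every panel, and the only filled points left of 0 are Etv1 in Cic-L-KO cortex and cerebellum.

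Etv5, which acts in alveolar type 2 cells and in glial progenitors, did not pass in lung. It had 162 to 204 CPM in WT lung (median 175), 162 to 208 in Cic-S-KO (median 194) and 161 to 196 in Cic-L-KO (median 181), and the 3 groups overlapped. It had a log2 fold change of 0.11 in Cic-S-KO lung (95% interval -0.003 to 0.22, edgeR adjusted p = 0.174) and 0.01 in Cic-L-KO lung (95% interval -0.10 to 0.12, edgeR adjusted p = 0.931). These intervals leave out a rise as large as that of Etv4 in the same libraries.

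In the cortex Etv5 had 106 to 173 CPM in WT (median 155), 103 to 169 in Cic-S-KO (median 118) and 192 to 237 in Cic-L-KO (median 204). Every Cic-L-KO sample was above every sample of both other groups, which overlapped. Etv5 rose 1.40-fold in Cic-L-KO cortex, a log2 fold change of 0.48 ± 0.11 (SE, edgeR adjusted p = 0.00143). In Cic-S-KO cortex it was -0.19 (95% interval -0.43 to 0.05, edgeR adjusted p = 0.348), and Cic-S-KO was lower than Cic-L-KO by -0.67 ± 0.12 (edgeR adjusted p = 0.000107).

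Cerebellar Etv5 spread widely, with 59.8 to 117 CPM in WT (median 95.5), 76.1 to 134 in Cic-S-KO (median 82.3) and 88.0 to 130 in Cic-L-KO (median 111), and all 3 groups overlapped. Its log2 fold change was 0.29 in Cic-L-KO (95% interval -0.01 to 0.59, edgeR adjusted p = 0.159) and 0.12 in Cic-S-KO (95% interval -0.19 to 0.43, edgeR adjusted p = 0.680). The Cic-L-KO effect on Etv5 was not shown to differ between cortex and cerebellum (difference 0.19, 95% interval -0.18 to 0.56, edgeR adjusted p = 0.498), and for the Cic-S-KO effect the difference was -0.31 (95% interval -0.70 to 0.08, edgeR adjusted p = 0.381). With genotype and sample number as a block that Cic-S-KO difference was -0.32 and passed (edgeR adjusted p = 0.0493).

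Etv1, a maturation factor of granule neurons and a layer 5 marker, fell in the Cic-L-KO brain, where Etv4 rose. In the cortex it had 103 to 134 CPM in WT (median 118), 97.1 to 131 in Cic-S-KO (median 118) and 82.9 to 100.2 in Cic-L-KO (median 89.7). All 8 Cic-L-KO samples were below the lowest WT sample, and Cic-S-KO overlapped both. Etv1 fell to 0.753 of its WT level in Cic-L-KO cortex, a log2 fold change of -0.41 ± 0.06 (SE, edgeR adjusted p = 1.09e-06). In Cic-S-KO cortex the log2 fold change was -0.03 (95% interval -0.14 to 0.09, edgeR adjusted p = 0.837), and Cic-S-KO was higher than Cic-L-KO by 0.38 ± 0.06 (edgeR adjusted p = 6.24e-06).

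Some markers of several cell types passed in the same cortex samples, where 43.2% of all genes passed in Cic-L-KO. Of 5 layer 5 markers 1 rose and 1 fell in Cic-L-KO, and their sums were 234 to 274 CPM against 255 to 292 in WT. Of 4 parvalbumin interneuron markers 2 rose there, with sums of 426 to 459 CPM against 341 to 384 in WT. Of 5 immediate early genes 2 fell, with sums of 404 to 703 CPM against 321.5 to 1509 in WT. The choroid plexus sum had a median of 409 CPM in Cic-L-KO (18.7 to 1297) against 28.8 in WT (21.3 to 589), with 1 of 5 markers higher.

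Markers of 4 other lists changed too in Cic-L-KO cortex, where 43.2% of all genes passed, with sums that overlapped WT. Of 4 macrophage markers 2 rose (24.1 to 33.2 CPM in sum, WT 20.5 to 32.2), of 5 astrocyte markers 1 rose (2103 to 2558, WT 1977 to 2448), and 1 of 5 oligodendrocyte precursor markers fell (203 to 247, WT 205 to 250.03). Of 3 genes tested from the Purkinje cell list 2 fell (853 to 1004, WT 981 to 1190). The part of these in the Etv1, Etv4 and Etv5 differences was not tested.

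In the cerebellum Etv1 had 430 to 631 CPM in WT (median 503), 324 to 515 in Cic-S-KO (median 436) and 336 to 475 in Cic-L-KO (median 441). The groups overlapped, and 3 of 8 Cic-L-KO and 1 of 7 Cic-S-KO samples were below all WT samples. Etv1 fell in Cic-L-KO by a log2 fold change of -0.34 ± 0.09 (SE, edgeR adjusted p = 0.0121), a call that ended when GC content was adjusted for (-0.25, edgeR adjusted p = 0.05005). In Cic-S-KO the log2 fold change was -0.26 ± 0.10 (edgeR adjusted p = 0.105; DESeq2 called it with an adjusted p of 0.0483).

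In the Cic-L-KO cerebellum 21.5% of all genes passed. Other cell type markers there included 3 of 4 macrophage markers that rose (20.6 to 28.0 CPM in sum, WT 15.8 to 19.7) and 2 of 5 striatal markers that rose (183 to 224, WT 162 to 185). Their part in the member differences was not tested. Granule neuron markers moved with cerebellar Etv1. The summed level of the 5 markers (Gabra6, Cbln3, Neurod1, Pax6 and Zic1) was 3522 to 4341 CPM in WT, 2393 to 3781 in Cic-S-KO, where 3 of 5 fell, and 2726 to 3760 in Cic-L-KO, where 2 of 5 fell. The library with the least Etv1, Cic-S-KO replicate 6 at 324 CPM, also had the lowest marker sum, and Cic-L-KO replicates 3 and 4, with 336 and 338 CPM of Etv1, had the next lowest sums, 2726 and 2733 CPM. As a share of the marker sum of its own library, Etv1 was 13.05% ± 1.17 (SD, n = 8) in WT. The Cic-S-KO group had 13.6% ± 0.5 (n = 7) and the Cic-L-KO group 12.3% ± 0.2 (n = 8), a scale chosen after seeing the data and not tested. Those shares ran from 11.5% to 14.8% in WT and from 11.9% to 12.6% in Cic-L-KO. The marker sums they are divided by were themselves lower in some knockout samples. The part of the granule neuron markers in the Etv1 fall was not tested.

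**Figure D3:**
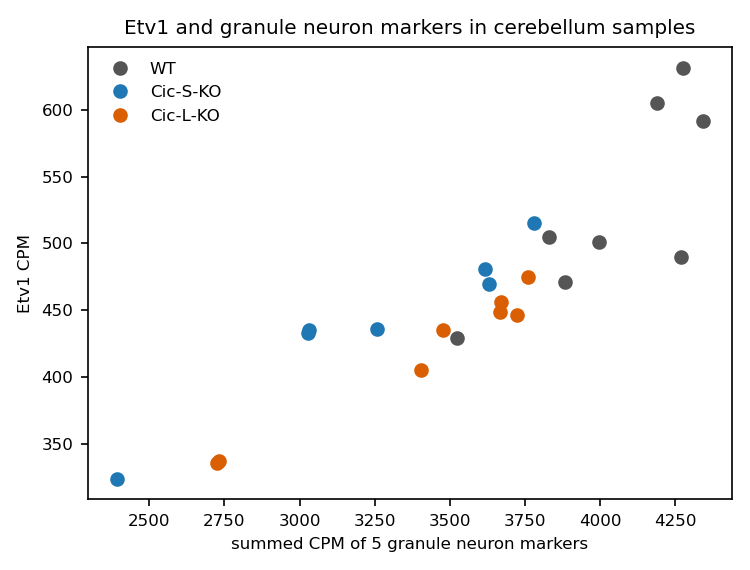
Etv1 CPM (vertical axis) against the summed CPM of 5 granule neuron markers (horizontal axis) in the 23 cerebellum samples, each point a sample and the colours the genotypes. Samples with low marker sums had low Etv1, down to 324 CPM of Etv1 at a sum of 2393.

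In lung Etv1 had 72.3 to 108 CPM in WT (median 88.3), 69.3 to 101 in Cic-S-KO (median 89.6) and 86.9 to 113 in Cic-L-KO (median 98.8), with overlap throughout. Lung Etv1 had a log2 fold change of 0.03 in Cic-S-KO (95% interval -0.13 to 0.20, edgeR adjusted p = 0.812) and 0.18 in Cic-L-KO (95% interval 0.02 to 0.35 before adjustment, edgeR adjusted p = 0.193). The Cic-L-KO effect on Etv1 was -0.07 apart between cortex and cerebellum (95% interval -0.30 to 0.16, edgeR adjusted p = 0.717).

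Ratios between the factors within a library need no scaling between libraries, and they set out how the balance of the 3 shifted. Of the summed PEA3 level per exon length, Etv5 held 74.2% ± 1.5 (SD, n = 8) in WT lung and 74.5% ± 2.7 in WT cortex, but 32.7% ± 3.4 in WT cerebellum, where Etv1 held 58.3% ± 2.9. In Cic-L-KO cortex the share of Etv1 was 10.4% ± 0.8, against 18.6% ± 2.7 in WT, and that of Etv4 was 11.0% ± 1.0, against 6.84% ± 1.1. In Cic-S-KO lung Etv4 held 21.2% ± 2.6, against 14.7% ± 1.0 in WT. The shares depend on the length used: per longest coding transcript Etv1 held 72.1% in WT cerebellum, 30.4% in WT cortex and 18.1% in Cic-L-KO cortex, and Etv5 still held the most in WT lung (64.8%) and WT cortex (62.4%).

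The largest of the 27 ratio differences was in the ratio of Etv1 to Etv4 in cortex. Per exon length it was 2.72 in WT, while Cic-S-KO had 2.31 and Cic-L-KO 0.954, a difference of -1.51 on the log2 scale between Cic-L-KO and WT (two-sided exact permutation test, adjusted p = 0.000932 over 27 tests), with 8 of 8 Cic-L-KO samples below all WT samples. Per length of the longest coding transcript the same ratio was 1.49 in Cic-L-KO cortex and 4.25 in WT, so which of the 2 genes is the higher depends on the length used, while the difference between genotypes does not. The Etv1 to Etv5 ratio in Cic-L-KO cortex was lower by -0.90 on the log2 scale (exact permutation test, adjusted p = 0.000932, 8 of 8 below all WT).

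The ratio of Etv4 to Etv5 was higher than in WT in 4 of the 6 knockout groups. In lung the log2 ratio of Etv4 to Etv5 was higher by 0.63 in Cic-S-KO (exact permutation test, adjusted p = 0.000932, 8 of 8 above all WT) and by 0.38 in Cic-L-KO (adjusted p = 0.00763, exact permutation test, 6 of 8 above). In cortex it was higher by 0.61 in Cic-L-KO (exact permutation test, adjusted p = 0.000932, 7 of 8 above) and by 0.41 in Cic-S-KO (exact permutation test, adjusted p = 0.0116, 4 of 7 above). Neither gene passed by itself in Cic-S-KO cortex, where Etv5 fell into separate sets of samples, as given below. In cerebellum the difference was -0.01 in Cic-L-KO (exact permutation test, adjusted p = 0.947) and 0.06 in Cic-S-KO (exact permutation test, adjusted p = 0.749).

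Etv1 lost ground to both partners in Cic-L-KO cerebellum, by -0.65 against Etv5 and -0.64 against Etv4 on the log2 scale (exact permutation tests, adjusted p = 0.000932 each, 7 of 8 below all WT in both). In Cic-S-KO cerebellum the ratio to Etv4 was lower by -0.43 (exact permutation test, adjusted p = 0.0116), and that to Etv5 differed by -0.37 (exact permutation test, adjusted p = 0.0703). In Cic-S-KO lung Etv1 to Etv4 was lower by -0.70 (exact permutation test, adjusted p = 0.000932, 8 of 8 below all WT). In Cic-L-KO lung it differed by -0.20 (exact permutation test, adjusted p = 0.0780), and Etv1 to Etv5 was higher there by 0.18 (exact permutation test, adjusted p = 0.0442), a call that the median in place of the mean ended (0.24, adjusted p = 0.0593).

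**Figure D4:**
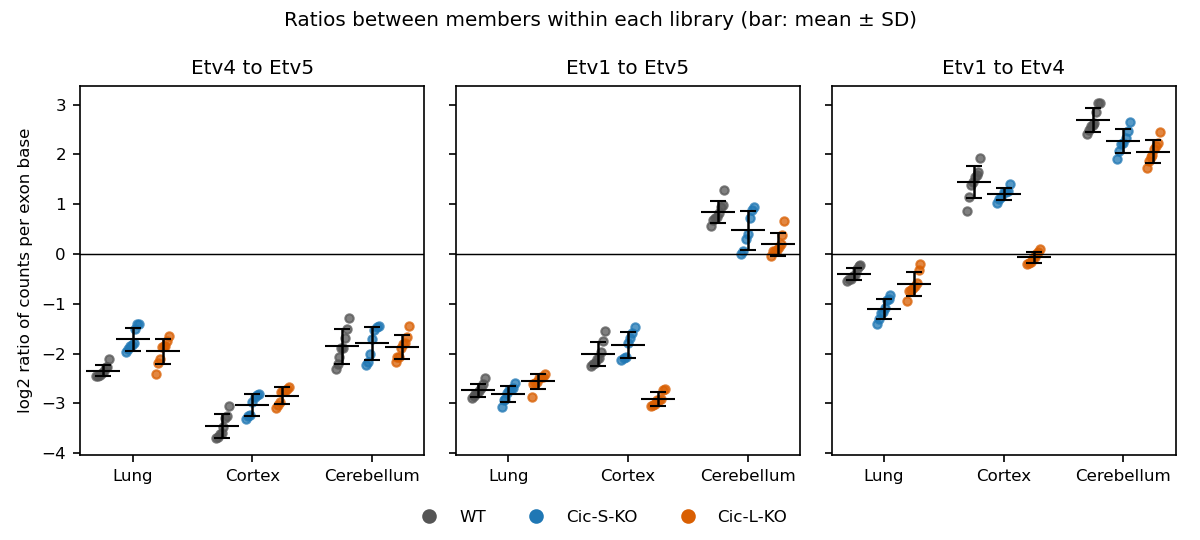
Log2 ratio of counts per exon base between 2 factors within a library (vertical axis), by tissue and genotype, with each point a sample and bars for mean ± SD. Etv1 to Etv4 in Cic-L-KO cortex drops to about 0, from a WT mean of 1.44, and Etv4 to Etv5 in cerebellum has group means of -1.86 (WT), -1.79 (Cic-S-KO) and -1.87 (Cic-L-KO).

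Variation between samples of a group differed among the members. The 2 brain regions were set side by side by genotype and sample number, although the labels do not say that they come from the same animal. In Cic-S-KO, Etv5 fell into 2 separate sets: replicates 1, 4 and 5 had 149, 169 and 168 CPM in cortex and the other 4 had 103 to 118. The same replicates 1, 4 and 5 had 118, 134 and 129 CPM in cerebellum, and the other 4 had 76.1 to 82.3. With sets of 3 and 4 samples, a correlation between regions within Cic-S-KO would rest on the gap between the sets, so none is given.

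In WT the Etv5 deviations correlated between regions with r = 0.80 (rho = 0.57, n = 8, exact permutation p = 0.0208, 0.0938 adjusted over 9), with WT replicate 2 lowest in both regions, at 106 and 59.8 CPM. In Cic-L-KO r was -0.20 (rho = -0.07, n = 8, exact permutation p = 0.629, 0.708 adjusted over 9). Etv1 and Etv4 gave exact permutation p values of 0.312 to 0.854 after adjustment in the 3 genotypes.

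**Figure D5:**
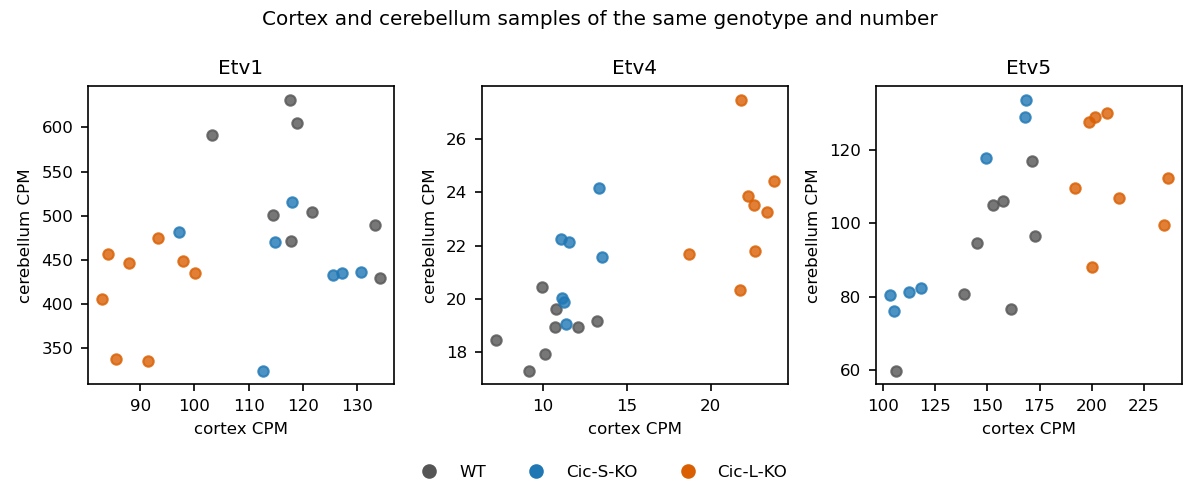
CPM in cortex (horizontal axis) and cerebellum (vertical axis) for samples of the same genotype and number, 1 panel per factor, each point a pair of samples. For Etv5 the Cic-S-KO points form 3 high and 4 low pairs, and the lowest WT point is at 106 and 59.8 CPM.

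Dusp6 and Spry4, feedback inhibitors of ERK signalling, were related to each member in each tissue, and the members to each other, in a family of 30 relations between deviations from group means. Of the 30, 5 passed over all samples, and 2 of the 5 passed without the 2 samples farthest from the median as well. In cerebellum Etv5 correlated with Dusp6 over 23 samples at r = 0.80 (rho = 0.81, permutation p = 3e-05, 0.0009 adjusted over 30), and at r = 0.74 without those 2 samples (permutation p = 0.0005, 0.0150 adjusted). With Spry4 it gave r = 0.63 (rho = 0.76, permutation p = 0.00452, 0.0339 adjusted) and also r = 0.63 without the 2 samples (permutation p = 0.00313, 0.0346 adjusted).

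The other 3 relations passed over all samples only. Etv5 in cortex against cerebellum had r = 0.77 over 23 pairs (rho = 0.76, permutation p = 0.00086, 0.0129 adjusted over 30) and r = 0.65 without the 2 farthest (0.0727 adjusted). Etv5 with Spry4 in cortex had r = 0.66 (rho = 0.61, permutation p = 0.00421, 0.0339 adjusted) and r = 0.58 without them (0.0727 adjusted). In lung Etv1 and Etv5 had r = 0.58 over 24 samples (rho = 0.49, permutation p = 0.00647, 0.0388 adjusted) and r = 0.44 without them (0.155 adjusted), so these 3 calls rest on those samples. Beyond these, Etv5 with Dusp6 in cortex missed by r (0.50, permutation test, 0.115 adjusted). It passed by rho (0.69, 0.0142 adjusted) and without the 2 farthest (r = 0.52, 0.0346 adjusted). Without all Cic-S-KO samples it had r = 0.29 (0.550 adjusted). Etv1 with Spry4 in lung missed (r = 0.50, permutation test, 0.0511 adjusted) and passed without the 2 farthest (r = 0.56, 0.0403 adjusted).

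In brain these values include the Cic-S-KO samples that lie in 2 sets. Without all Cic-S-KO samples, a choice made after seeing the data, 0 of the 5 passed by r at 16 samples. Etv5 with Dusp6 in cerebellum then had r = 0.77 (permutation p = 0.00173, 0.0519 adjusted over 30) and rho = 0.79 (0.0189 adjusted), and with Spry4 r = 0.50 (0.280 adjusted) and rho = 0.79 (0.0189 adjusted).

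The other ETS factors, a family of DNA-binding proteins to which PEA3 belongs, gave 20 genes in the table. In Cic-S-KO lung 5 of 19 tested rose and 2 fell, where 15.7% of all genes passed, although the median of the list was -0.07 (all genes 0.00), and they included the epithelial factors Ehf (0.86 on the log2 scale, edgeR adjusted p = 0.000204) and Spdef (0.97, edgeR adjusted p = 0.00775). In Cic-L-KO lung 0 of 19 passed in edgeR (3 at an unadjusted p under 0.05, 0 in DESeq2), against 4.89% of all genes. In Cic-L-KO cortex 5 of 15 rose and 3 fell (median 0.06, all genes 0.01), where 43.2% of all genes passed, and in Cic-L-KO cerebellum 3 of 15 rose and 2 fell (median 0.09, all genes 0.00), where 21.5% did. Ets1, an endothelial and lymphoid factor, rose in Cic-L-KO cortex (0.52, edgeR adjusted p = 5.64e-06) and cerebellum (0.79, edgeR adjusted p = 5.17e-08) and in Cic-S-KO cerebellum (0.43, edgeR adjusted p = 0.00172, 6 of 7 above all WT), while the ERK substrate Elk1 fell in Cic-L-KO cortex (-0.36, edgeR adjusted p = 2.56e-07). In Cic-S-KO cortex 0 of 15 passed in edgeR (2 at an unadjusted p under 0.05, 1 in DESeq2), against 6.53% of all genes. In Cic-S-KO cerebellum 2 of 15 rose and 1 fell, where 8.23% of all genes passed.

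Other genes known as Capicua targets, 20 in the list, are read against the share of all genes that passed. In lung 0 of 18 passed in edgeR in Cic-S-KO (4 at an unadjusted p under 0.05, 1 in DESeq2, median -0.06, 15.7% of all genes), where Etv4 had its larger lung rise. In Cic-L-KO lung 3 of 18 rose (median 0.09, all genes 0.00), where 2.62% of all genes rose. In Cic-L-KO cortex 10 of 20 rose and 2 fell (median 0.29, all genes 0.01), where 21.4% of all genes rose and 21.9% fell. In Cic-L-KO cerebellum 9 of 20 rose (median 0.24, all genes 0.00), where 10.9% of all genes rose. In Cic-S-KO 1 of 20 rose in cortex and 1 in cerebellum, where 6.53% and 8.23% of all genes passed.

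Maff, a small Maf transcription factor, rose in Cic-L-KO in every tissue, by 1.15 on the log2 scale in lung (edgeR adjusted p = 0.00139), 2.10 in cortex (edgeR adjusted p = 3.49e-10) and 2.51 in cerebellum (edgeR adjusted p = 1.53e-10). The phosphatase gene Dusp4 rose in Cic-L-KO lung (0.45, edgeR adjusted p = 0.00311) and cerebellum (0.88, edgeR adjusted p = 0.00269). The adaptor gene Shc3 rose in Cic-L-KO cortex (0.71, edgeR adjusted p = 1.10e-07) and in Cic-S-KO cerebellum (0.44, edgeR adjusted p = 0.00186).

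Upstream of the factors, 26 genes of receptors, the ERK cascade and the machinery that degrades PEA3 proteins were tested. Cop1, also on that list as part of the degradation machinery, had no identifier matched by symbol and was not tested. In Cic-L-KO cortex 12 of 26 rose and 6 fell (median 0.06), where 43.2% of all genes passed, and those that rose included the scaffold gene Ksr1 (0.64, edgeR adjusted p = 5.20e-12) and the receptor gene Fgfr1 (0.59, edgeR adjusted p = 1.56e-11). In Cic-L-KO cerebellum 7 rose and 4 fell, where 21.5% of all genes passed, and in Cic-L-KO lung 2 rose, where 4.89% did. In Cic-S-KO 1 rose and 3 fell in lung, 2 fell in cortex, and 2 rose and 1 fell in cerebellum, where 15.7%, 6.53% and 8.23% of all genes passed.

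A further list held 18 genes linked to PEA3 factors in lung or brain, whether upstream or downstream of them, and 15 to 16 were tested per tissue. In lung 1 of 16 rose and 1 fell in Cic-S-KO, where 15.7% of all genes passed, the fall being Fgf10, the growth factor that induces Etv4 and Etv5 in lung buds (-0.40, edgeR adjusted p = 0.00139, 8 of 8 samples below all WT). In Cic-L-KO lung 2 of 16 rose, where 2.62% of all genes rose. They were Erbb3 (0.28, edgeR adjusted p = 0.00996) and Shh (0.23, edgeR adjusted p = 0.0334). In Cic-L-KO cortex 4 of 16 rose and 1 fell, where 43.2% of all genes passed, and the fall was again Fgf10 (-0.76, edgeR adjusted p = 6.04e-06). Those that rose included Shh (0.52, edgeR adjusted p = 0.00494) and Tiam1 (0.33, edgeR adjusted p = 0.0113). In Cic-S-KO cortex 0 of 16 passed in edgeR (3 at an unadjusted p under 0.05, 1 in DESeq2), against 6.53% of all genes. In Cic-S-KO cerebellum 3 of 15 rose and 1 fell, where 8.23% of all genes passed. The fall was Grin2c (-0.37, edgeR adjusted p = 0.0430), the NMDA receptor subunit gene that Etv1 activates in granule neurons. Etv1 itself had a log2 fold change of -0.26 in that group, which did not pass in edgeR (adjusted p = 0.105) but did in DESeq2 (adjusted p = 0.0483). Th, for the dopamine enzyme tyrosine hydroxylase, rose in Cic-S-KO cerebellum by 1.27 (edgeR adjusted p = 4.18e-08, 7 of 7 above all WT). In Cic-L-KO cerebellum 3 of 15 rose and 1 fell (21.5% of all genes passed). The fall there was Gdnf (-1.31, edgeR adjusted p = 0.00456), at a mean of 0.33 CPM against 0.83 in WT. Genes of the list that rose there included Cav1 (0.45, edgeR adjusted p = 0.00166) and Erbb3 (0.31, edgeR adjusted p = 0.0361). Grin2c did not pass as lower there, and its relation to Etv1 was not tested.

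The genes whose pattern over the 9 groups was most like each member were found by the root mean square difference of tissue-centred mean log2 CPM among 14306 genes. For Etv4 the nearest were Cidea (0.07), Chad (0.08), Cited1 (0.08), Podn (0.09) and Rhbdl3 (0.10), against a root mean square of 0.33 for Etv4 itself. Etv5 was most like Wwc1 (0.04), Cpt2 (0.04), Ppm1h (0.05), Dab2 (0.05) and Frmpd1 (0.05), with 0.19 for itself. For Etv1 they were Lyst (0.04), Epha3 (0.04), Ramp3 (0.05), Rnf144a (0.05) and Alkbh2 (0.05), with 0.14 for itself. These genes were picked for their likeness, so it is a description.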

How the data were processed

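The authors deposited raw read counts per gene for 50789 versioned Ensembl identifiers in 70 columns, from polyA-selected RNA of flash-frozen tissue, per the labels' protocols. The submitters' processing notes name STAR 2.7 and GRCm38.p6. The counting program and its use of strand are not given in the sources used here. Each column name matched the library name of 1 sample. Names, exon lengths and coordinates were taken from the GENCODE M21 annotation of GRCm38, in which 50725 identifiers matched with the version ignored.

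For each tissue, edgeR 4.0.16 (R 4.3.3) kept genes by filterByExpr, scaled libraries by TMM and fitted all 3 genotypes with a robust quasi-likelihood model. Benjamini-Hochberg adjusted p under 0.05 over all genes passed. CPM is TMM-normalised. Ratios used counts + 0.5, and relations log2 CPM (prior count 2) with 100000 permutations within genotype. From each list, up to 3 genes past the threshold with the largest absolute log2 fold change per knockout could be named, and the 5 genes nearest each member. The members and lists were chosen with earlier results of these data known. Genes on chromosome 1 were not analysed here. The tests were tried on simulated counts first. Alternatives were DESeq2 1.42.0, RLE, other filters, a non-robust fit, only the compared genotypes, Ddx3y or GC content, replicate blocks, and leaving out each library.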

Additional observations from a re-analysis of the deposited data

Results flagged for a closer look

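Among 36 sets of values (each member in each group, and total counts in each group), 3 held a sample far from the others of its group, where chance gives about 1 in 20, or 1.8. In Cic-L-KO cortex, replicate 4 had 18.7 CPM of Etv4, and the other 7 samples had 21.7 to 23.8. It was still above every WT sample. In Cic-S-KO cerebellum, replicate 6 had 324 CPM of Etv1, and the others had 433 to 515. Its granule neuron marker sum was also the lowest of the 23 cerebellum samples, at 2393 CPM. In Cic-S-KO lung, replicate 5 had a total count of 35523037, against 19310684 to 25877439 in the others.

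The Cic-L-KO effect on Etv4 differed between brain regions, being 0.78 larger in cortex than in cerebellum on the log2 scale (edgeR interaction test, adjusted p = 7.44e-08).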

How the results depend on the processing

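No value for the 3 members that passed changed sign under any alternative that was run. Of values that did not pass, 3 fold changes, 2 ratios and 9 relations changed sign under at least 1, among them Etv1 in Cic-S-KO cortex (-0.03, up to 0.04). Of the log2 fold changes, DESeq2 brought 2 past the threshold in Cic-S-KO cerebellum, Etv4 at 0.17 and Etv1 at -0.26, and the GC adjustment left Etv1 in Cic-L-KO cerebellum short of it at -0.25. Leaving out single libraries changed the call of Etv4 in Cic-S-KO cerebellum (0.14 to 0.20) and of no other fold change within a tissue. The cause was not tested.

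Sample numbers were not taken to pair the samples, since the labels do not say so. Not every same-numbered pair correlated over 0.1 in its deviations over genes, which cannot exclude shared animals. Between cortex and cerebellum 16 of 23 pairs did (mean 0.14), and across genotypes 16 of 24 in lung, 8 of 22 in cortex and 9 of 22 in cerebellum. Of the cortex samples 10 of 23 correlated best with their own number in cerebellum, and 12 of 23 cerebellum samples did so in cortex. In Cic-S-KO it was 6 of 7 each way. No rate expected by chance was set beside these counts, so shared animals were neither shown nor excluded. With genotype and number as a replicate block, the Cic-S-KO effect on Etv5 differed between regions at -0.32 (edgeR adjusted p = 0.0493). Sign flips between genotypes were paired by title number, which differs from the number in the library name for most Cic-S-KO brain samples. Paired sign flips left the log2 ratio of Etv4 to Etv5 in Cic-S-KO cortex (0.39), Etv1 to Etv4 in Cic-S-KO cerebellum (-0.45), and Etv1 to Etv5 in lung for Cic-L-KO against WT (0.18) and for the 2 knockouts (-0.25) short of the threshold, and brought Etv1 to Etv5 in cerebellum between the knockouts past it (0.35). Medians ended the same 2 lung calls, at 0.24 and -0.24. No other fold change or ratio changed its call.

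Each of the 5 relations that passed over all samples missed the threshold under at least 1 alternative. Etv4 in WT cortex rests on 170 to 344 counts a sample, which limits its precision.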
